A study of Mus musculus with 8 samples.

Results

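The 7 genes of the classical cyclin-dependent kinase (CDK) inhibitors were followed in mouse nephron progenitors with floxed, Cre-targeted Hdac1 and Hdac2, both histone deacetylase genes, against wildtype progenitors. The genes were chosen by name: Cdkn1a, Cdkn1b and Cdkn1c of the Cip/Kip family and Cdkn2a, Cdkn2b, Cdkn2c and Cdkn2d of the INK4 family, 7 genes beside 22662 genes tested in the series. The arrays carried 10 probes for the 7 genes, found through the RefSeq accession of each probe. Of these, 6 probes, 1 each for 6 genes, passed the filter for signal above background, and neither probe of Cdkn2a did.

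Cells positive for enhanced green fluorescent protein (EGFP) were sorted from kidneys at embryonic day 15.5, on a C57BL/6 background, and total RNA was hybridised to 8 Agilent 2-colour arrays. The mutant pools came from Six2CreEGFP+ kidneys with HDAC1&2f/f alleles (4 arrays) and the wildtype pools from Six2CreEGFP+ kidneys with HDAC1&2+/+ alleles (4 arrays), so the wildtype cells carry the Cre transgene as well. The Six2 promoter drives Cre and EGFP in nephron progenitors, and each sample is a pool of sorted cells. Cy5 held the pool named and Cy3 held RNA of wildtype pool 1 on all arrays, so that each value is a log2 ratio to that RNA, and wildtype pool 1 was compared with itself.

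CDK inhibitors stop cells from entering the cycle by binding CDKs or their cyclin complexes. The Cip/Kip proteins bind cyclin E and cyclin A complexes of CDK2, and the INK4 proteins bind CDK4 and CDK6 and keep cyclin D away from them, which leaves the retinoblastoma protein bound to E2F factors. Cdkn1a is a textbook target of class I histone deacetylases: in fibroblasts and in tumour cells, loss or inhibition of HDAC1 raises its RNA. In the developing kidney Cdkn1c is best known from podocytes and from stromal cells.

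Sequences before the annotated starts of Cdkn1a and Cdkn2d are shown. Cdkn1a was taken as the member known for HDAC control, and Cdkn2d as the only measured member whose mutant and wildtype samples did not overlap. Among all genes, every mutant sample lay above every wildtype sample for 8.72% and below for 5.95%. Each sequence is the 250 bases before a start, 5′ to 3′ on the gene's strand, from RefSeq (GRCm38.p6). The first Cdkn1a start lies after chr17:29090729-29090978 (+ strand), the second after chr17:29093519-29093768 (+ strand), and the Cdkn2d start after chr9:21291210-21291459 (- strand). Capitals mark the GC box GGGCGG, the site bound by Sp1-type factors, on either strand, and the p53 response element, searched as 2 adjacent half-sites of its consensus with at most 1 mismatch.
Cdkn1a, first start: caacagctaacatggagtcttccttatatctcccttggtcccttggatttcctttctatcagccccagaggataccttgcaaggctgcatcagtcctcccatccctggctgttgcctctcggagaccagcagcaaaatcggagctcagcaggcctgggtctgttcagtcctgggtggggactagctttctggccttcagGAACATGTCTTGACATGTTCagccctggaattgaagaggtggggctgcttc
Cdkn1a, second start: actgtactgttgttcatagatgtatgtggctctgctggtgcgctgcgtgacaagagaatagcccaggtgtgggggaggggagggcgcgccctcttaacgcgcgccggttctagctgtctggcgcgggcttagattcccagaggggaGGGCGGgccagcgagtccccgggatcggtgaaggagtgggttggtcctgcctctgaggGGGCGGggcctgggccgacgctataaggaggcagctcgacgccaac
Cdkn2d: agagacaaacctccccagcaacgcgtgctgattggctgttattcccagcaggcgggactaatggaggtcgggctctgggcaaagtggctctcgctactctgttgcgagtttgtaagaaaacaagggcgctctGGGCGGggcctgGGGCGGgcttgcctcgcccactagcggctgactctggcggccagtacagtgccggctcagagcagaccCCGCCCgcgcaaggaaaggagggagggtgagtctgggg

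The window of the first Cdkn1a start held 1 p53 element, from position -51 to position -32 relative to the start, and no GC box. The window of the second start held 2 GC boxes, beginning at positions -104 and -46. The Cdkn2d window held 3 GC boxes. Of the other members in the promoter table, the first annotated start had 3 GC boxes for Cdkn2c and 2 for Cdkn2a, Cdkn1b held 1 and Cdkn2b held 0. The windows of the second annotated starts of Cdkn2c and Cdkn2a held 0 each. Among 32851 promoter windows of the same length, 32.7% held at least 1 GC box and 0.0761% held a p53 element by this search. These matches describe the letters only.

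The wildtype 2 array stood apart, with 48627 of 55681 probes called well above background in Cy5, where the other 7 arrays had 28150 to 33982. Mutant 1 had the widest spread between probes of one gene, a median SD of 0.245 (log2), against 0.0826 to 0.142 elsewhere. Pools 3 and 4 were as close to each other, in mutant and in wildtype, as repeat arrays of the Cy3 RNA, and were averaged to 1 sample, which left 3 mutant and 3 wildtype samples. Each difference is a log2 value, mutant minus wildtype. Its standard error (SE) and its Benjamini-Hochberg adjusted p come from a limma fit across all genes. In that fit 10 of 22662 genes passed an adjusted p of 0.05 (0.0441%), and 34 (0.15%) passed when the pool number was a block. Of the deleted genes, Hdac1 differed by -0.30 ± 0.09 (SE, adjusted p = 0.476 in limma) and Hdac2 by -0.13 ± 0.14 (adjusted p = 0.84). Whether these probes lie in the deleted exons was not analysed here. Six2, which defines the sorted cells, was well above background on all arrays and differed by -0.13 ± 0.14 (adjusted p = 0.839). Of the 16 nephron progenitor markers, 12 had a lower mutant mean and 2 fell: Cited1 differed by -2.72 ± 0.13 and Traf1 by -1.85 ± 0.10 (SE, adjusted p = 0.00279 and 0.00286 in limma). With the block 3 fell, the other one being Meox2 at -1.92 ± 0.12 (adjusted p = 0.0313). Of 11 proximal tubule markers, 10 had a lower mutant mean and 9 were lower in all 3 pairs, with a median difference of -1.13. Of all genes, 11226 of 22662 had a lower mutant mean and 17.4% were lower in all 3 pairs. The proximal tubule markers also varied within wildtype, where pool 2 lay at a median of -2.04 relative to the other samples. None of the 11 passed without the block. Pdzk1 and Cldn2 fell with it, with differences of -1.46 ± 0.10 and -1.49 ± 0.12 (SE, adjusted p = 0.0313 and 0.0329 in limma). The part of these shifts in the CDK inhibitor values was not tested.

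The probes of the CDK inhibitor genes ranged from far above background to at background. The Cdkn1c probe lay 2271 to 3046 times above its local background on mutant arrays and 2303 to 2640 times on wildtype arrays, with 0 saturated spots. Cdkn2d lay 115.4 to 135.1 times above background on mutant and 98.9 to 117.7 times on wildtype arrays, Cdkn1b 44.5 to 64.4 and 53.1 to 64.6 times, and the first Cdkn1a probe 17.1 to 24.0 and 18.4 to 21.9 times. Cdkn2c was dimmer, at 3.33 to 6.87 times background on mutant and 3.53 to 4.06 times on wildtype arrays. Cdkn2b was close to background, at 1.33 to 1.63 times on mutant and 1.32 to 2.31 times on wildtype arrays, although its first probe was called well above background on all 8. These ratios describe each probe and do not rank the genes, since probes differ in how well they bind.

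**Figure D1:**
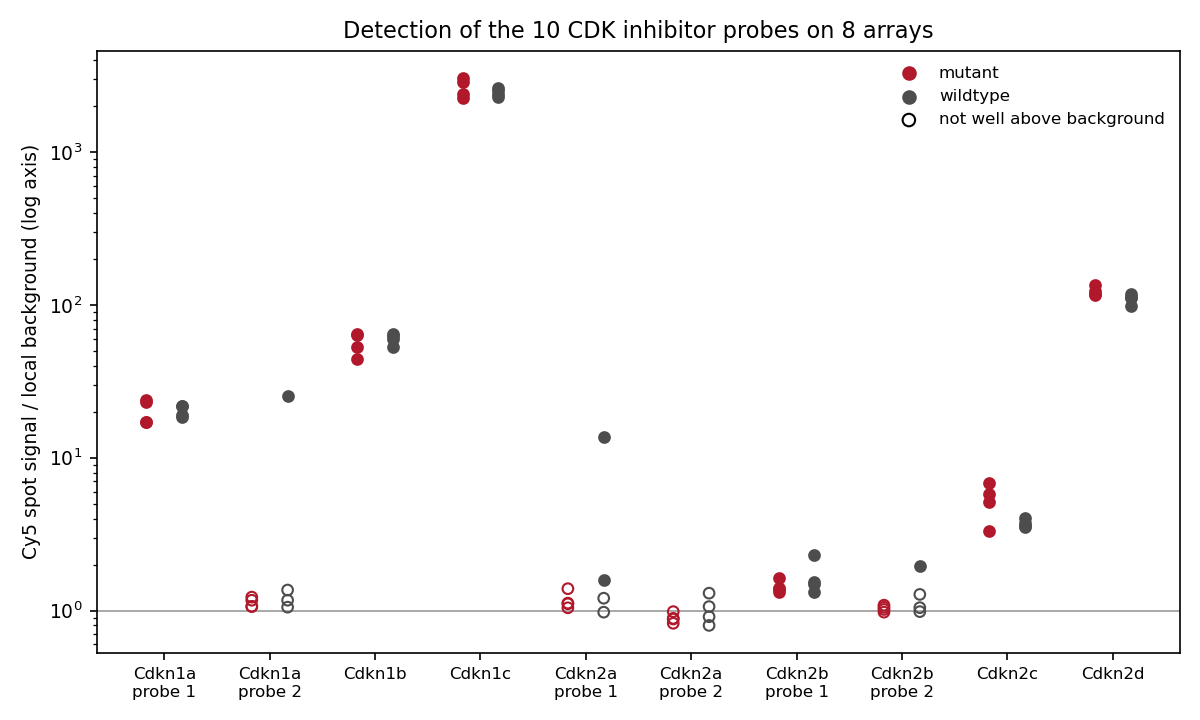
Cy5 spot signal divided by local background (log axis) for the 10 probes of the 7 CDK inhibitor genes, mutant arrays left in red and wildtype arrays right in grey; open circles are arrays where the probe was not well above background. The probes of 6 genes are above background on all 8 arrays, while the second Cdkn2a probe lies near 1 on all arrays, and the first Cdkn2a probe and the second probes of Cdkn1a and Cdkn2b do so except on 1 or 2 wildtype arrays.

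Cdkn2a, whose locus encodes the CDK inhibitor p16INK4a and, in another reading frame, the p53 activator ARF, was not well above background on any of the 4 mutant arrays by either probe. In wildtype its first probe was called above background on 2 of 4 arrays. One of them was wildtype 2, where the spot was marked as an outlier and left out, and the other was wildtype 4, at 1.58 times background. Its second probe was called on 0 mutant and 0 wildtype arrays. With both groups at background no fold is given. The second Cdkn1a probe, designed to the accession NM_001111099, was called on 0 mutant arrays and 1 wildtype array, again an outlier spot on wildtype 2, and the second Cdkn2b probe on 0 mutant arrays and 1 wildtype array. The Cdkn1a probe that was detected, with 10 spots per array, was designed to NM_007669. The tables used here do not say which annotated start belongs to which accession.

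None of the 6 measured CDK inhibitor genes passed the test between mutant and wildtype progenitors, with the pool block or without it, against 0.15% and 0.0441% of all genes. Thus 0 of 6 rose and 0 of 6 fell, where 0.0221% of all genes rose and 0.0221% fell, and with the block 0.0353% rose and 0.115% fell. At an unadjusted p under 0.05, 1 member passed in limma (7.24% of all genes) and 2 passed with the block (12.7%). In all, 4 of the 6 had a higher mean in mutant samples, against 11436 of 22662 genes. In these bulk samples, fewer cells of a type and less RNA per cell cannot be told apart.

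Cdkn1a encodes p21, the Cip/Kip inhibitor that p53 induces and that also binds the replication clamp PCNA. Its log2 ratios were 0.18, -0.35, 0.19 and 0.15 in mutant pools 1 to 4, against 0.05, -0.43, 0.11 and 0.12 in wildtype pools 1 to 4. Pool 2 was low in both groups, and the groups overlapped. The means were 0.00 ± 0.31 in mutant and -0.09 ± 0.30 in wildtype samples (SD, n = 3 each), a difference of 0.09 ± 0.20 (SE, adjusted p = 0.923 in limma). The 95% interval of the ratio of mutant to wildtype ran from 0.763 to 1.49. Within pools of the same number the differences were 0.14, 0.08 and 0.05 for pools 1, 2 and the mean of 3 and 4, so that mutant was above wildtype in 3 of 3 pairs. With the pool number as a block the interval of the ratio narrowed to 0.922 to 1.23 (adjusted p = 0.648 in limma). That pairing was taken from these data and not from a label, and without it the interval reaches 1.49. Without the wildtype 2 array the difference was -0.08, and without mutant 1 it was 0.00 (-0.0015).

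Cdkn1b encodes p27, the Cip/Kip inhibitor of quiescent cells, whose level is set largely by protein degradation. It stood at 0.06, -0.17, 0.21 and 0.05 in mutant pools 1 to 4, against 0.12, -0.12, 0.05 and 0.13 in wildtype pools. The groups overlapped, with pool 2 again lowest in both. The means were 0.01 ± 0.16 in mutant and 0.03 ± 0.13 in wildtype samples (SD, n = 3 each). The difference was -0.02 ± 0.12 (SE, adjusted p = 0.972 in limma), with a ratio between 0.806 and 1.20 at 95% confidence.

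Cdkn1c encodes p57, the imprinted Cip/Kip inhibitor, expressed from the maternal chromosome. Its ratios were 0.50, 0.09, -0.19 and -0.20 in mutant pools 1 to 4, against 0.23, -0.11, -0.04 and -0.09 in wildtype pools. Pool 1 was highest in both groups, and the mutant values spread beyond the wildtype ones on both sides. On the wildtype pool 1 array the same RNA was in Cy5 and Cy3, so its 0.23 is not a difference in RNA. The means were 0.13 ± 0.35 in mutant and 0.02 ± 0.19 in wildtype samples (SD, n = 3 each), a difference of 0.11 ± 0.19 (SE, adjusted p = 0.899 in limma). By pair, mutant was higher by 0.26 in pool 1 and 0.20 in pool 2, and the difference was -0.13 for the mean of pools 3 and 4. The 95% interval of the ratio was 0.789 to 1.48, and without the mutant 1 array the difference was -0.07. The podocyte marker list, which counts Cdkn1c itself, had a median difference of -0.52 over 11 measured genes, with 0 passing. Markers of the interstitial stroma had a median difference of 0.29 (12 genes), from -0.0024 to 0.50, with 0 passing. Of these 12, 11 were higher in mutant means, against 11436 of 22662 genes. The part of either cell type in the Cdkn1c value was not tested.

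Among the INK4 genes, Cdkn2d, which encodes p19INK4d, was the member that came nearest to a difference. Its ratios were 0.43, 0.06, 0.10 and 0.22 in mutant pools 1 to 4, against -0.12, -0.22, -0.10 and -0.08 in wildtype pools. All 4 mutant values lay above all 4 wildtype values. The means were 0.22 ± 0.19 in mutant and -0.14 ± 0.07 in wildtype samples (SD, n = 3 each), a difference of 0.36 ± 0.12 (SE), or 1.29-fold. It did not pass over all genes (adjusted p = 0.555 in limma and 0.266 with the block, unadjusted p = 0.02 and 0.0134). The exact two-sided permutation test gave 0.1, the smallest p that 3 against 3 samples allow. Every mutant sample lay above every wildtype sample for 8.72% of all genes, and 1 of 6 members was among them; every mutant sample lay below for 5.95% of all genes and 0 of 6 members. By pair the differences were 0.55, 0.29 and 0.25 for pools 1, 2 and the mean of 3 and 4, and without the mutant 1 array the difference was 0.26.

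Cdkn2c encodes p18, the INK4 inhibitor that acts with p27 in many dividing tissues of the mouse. Its ratios were 0.88, -0.28, 0.31 and 0.09 in mutant pools 1 to 4, against 0.09, -0.53, -0.03 and -0.23 in wildtype pools. Mutant pool 1 stood highest, and mutant pools 2 and 4 lay within the wildtype range. The means were 0.27 ± 0.59 in mutant and -0.19 ± 0.32 in wildtype samples (SD, n = 3 each), and the difference of 0.46 ± 0.30 (SE, adjusted p = 0.806 in limma) was smaller than the SD of the mutant samples. Mutant was above wildtype in 3 of 3 pairs, by 0.79, 0.25 and 0.32, and with the block the SE was 0.13 (adjusted p = 0.287, unadjusted p = 0.0164). The value moved with single arrays: it was 0.15 without mutant 1, 0.29 without wildtype 2 and 0.73 without mutant 2.

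Cdkn2b encodes p15, the INK4 inhibitor that TGF-beta induces in epithelial cells, and lies beside Cdkn2a. Its ratios were 0.05, -0.40, -0.32 and -0.08 in mutant pools 1 to 4, against -0.05, -0.30, -0.22 and -0.13 in wildtype pools. The groups overlapped over nearly their whole range. The means were -0.18 ± 0.22 in mutant and -0.17 ± 0.13 in wildtype samples (SD, n = 3 each), a difference of -0.01 ± 0.14 (SE, adjusted p = 0.991 in limma; ratio 0.791 to 1.25 at 95% confidence). The offset of 50 added in the background correction shrinks the ratio of so dim a probe. Of the genes beside it, Mtap differed by -0.36 ± 0.33 and Dmrta1 by 0.18 ± 0.12 (SE, both not passing). Dmrta1 was above background on 3 mutant and 2 wildtype arrays, so it passed the filter through the mutant group only.

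**Figure D2:**
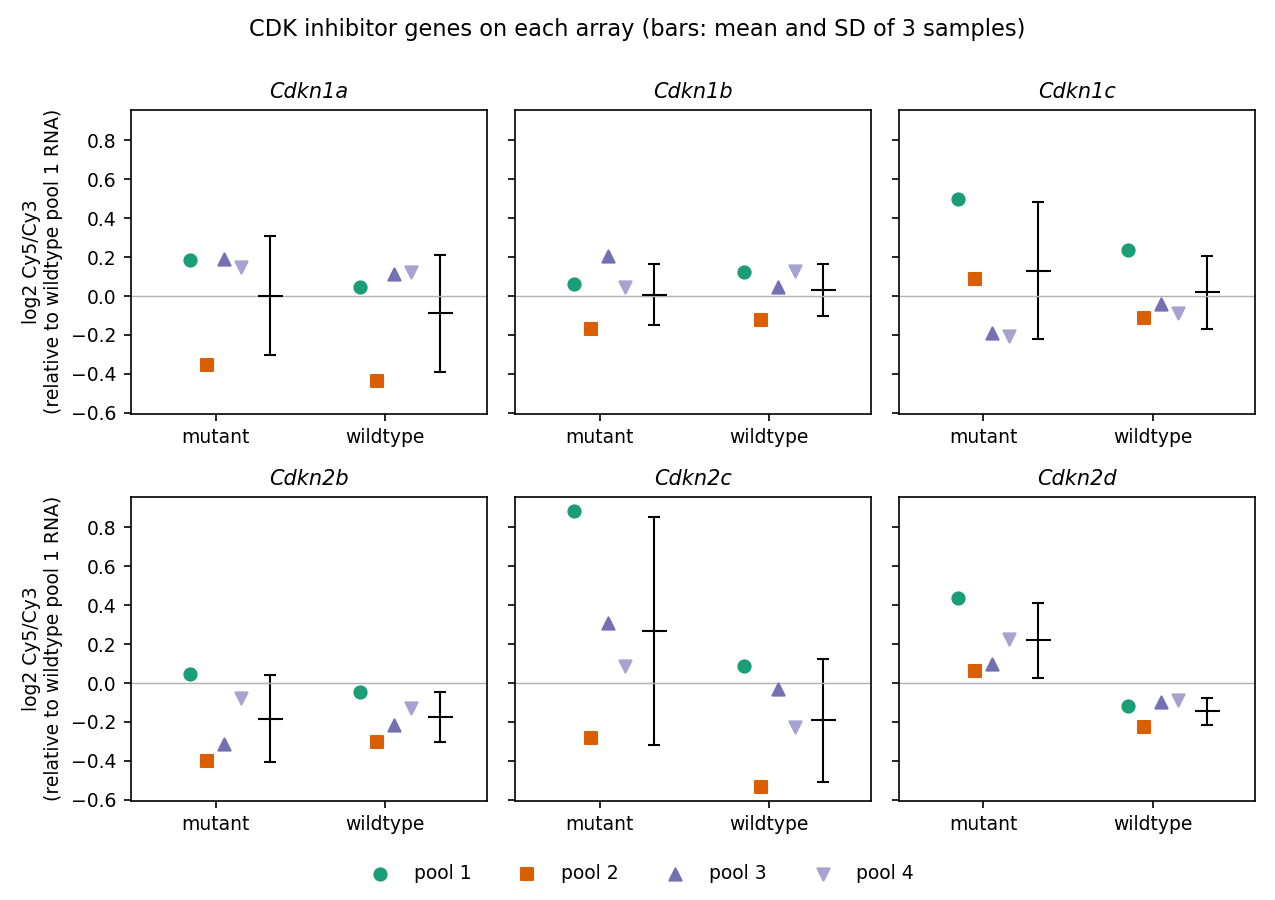
Log2 ratio of Cy5 to the wildtype pool 1 RNA in Cy3 for the 6 CDK inhibitor genes measured, mutant arrays left and wildtype arrays right in each panel; symbols are single arrays coloured by pool, and black bars are the mean and SD of 3 samples, with pools 3 and 4 averaged. Pool 2 (orange) is the lowest sample of both groups for 5 of the 6 genes, and only for Cdkn2d do all mutant arrays lie above all wildtype arrays.

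**Figure D3:**
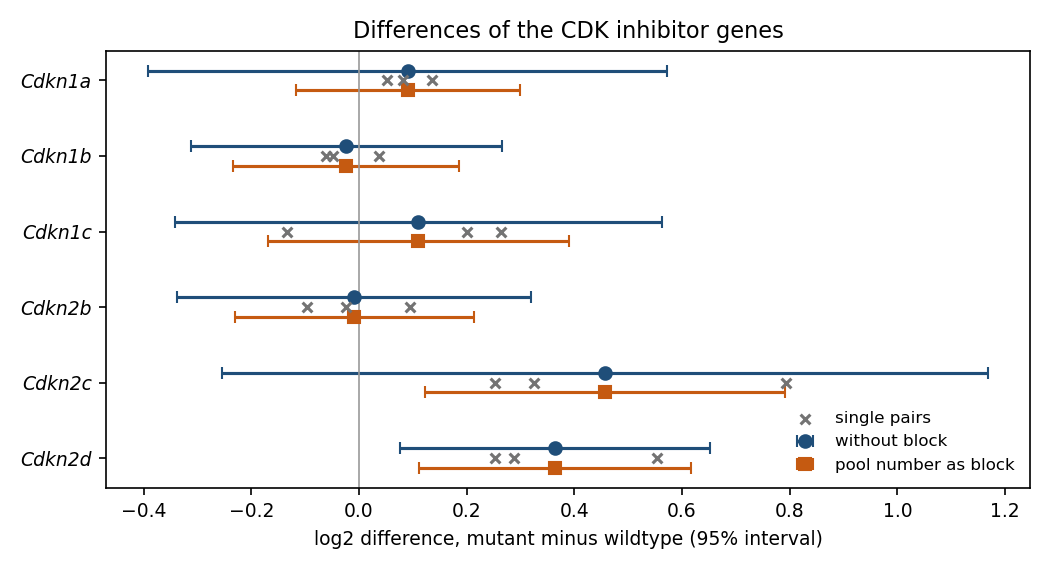
Log2 difference of mutant minus wildtype for each gene with its 95% interval, without a block (blue circles) and with the pool number as a block (orange squares); grey crosses are the differences within single pairs of pools. The unblocked intervals include 0 for all genes but Cdkn2d, whose interval runs from 0.08 to 0.65 before adjustment over all genes. With the block, the intervals of Cdkn2c (0.12 to 0.79) and Cdkn2d (0.11 to 0.62) exclude 0, also before adjustment.

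For Cdkn1a, Cdkn1b, Cdkn2b and Cdkn2c, the distance of pool 2 from the other samples was larger in both groups than the difference between genotypes. Pool 2 was the lowest sample of both groups for 5 of the 6 genes, against 24% of all genes. For Cdkn1a it lay below the mean of the other samples by -0.53 in mutant and -0.52 in wildtype, and for Cdkn2c by -0.82 in mutant and -0.51 in wildtype. The exception was Cdkn1c, where pool 2 was not the lowest mutant sample. Taken singly, pool 2 was lowest for 35.2% of all genes in mutant and for 49.5% in wildtype. These are ratios to Cy3, and the wildtype side rests on the wildtype 2 array, which stood apart in probes above background. By log2 Cy5 level, not scaled between arrays, wildtype 2 was the lowest wildtype array for Cdkn2c only (7.66). The members Cdkn1a, Cdkn2c and Cdkn2d, were higher in mutant in all 3 pairs, 3 of 6 against 23% of all genes, and 0 of 6 were lower in all pairs, against 17.4%. Other transcripts moved with pool 2 as well. Medians of pool 2 relative to the other samples of the group follow, for mutant and then wildtype. The proximal tubule marker list lay at -1.33 and -2.04 (11 genes) and the macrophage and leukocyte list at -0.62 and -0.26 (9 genes). The DNA replication list lay at 0.19 and 0.12 (20 genes), and all genes at -0.0076 and -0.058. All cell type marker lists lay below 0 in both groups except the nephron progenitor list, at 0.13 and 0.10. The part of these in the low CDK inhibitor values of pool 2 was not tested.

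The genes whose ratio followed each member most closely over the 6 samples were ranked by Pearson correlation among 14806 named genes. They were Dbndd2, Smim6 and Tmem140 for Cdkn1a (0.998, 0.997 and 0.997), Eml2 and Neu2 for Cdkn1b (0.997 and 0.992), and Utp23, N4bp2 and Lalba for Cdkn1c (0.995, 0.99 and 0.987). For the INK4 genes they were Slc39a3, Rab3gap2 and Lockd for Cdkn2b (0.999, 0.994 and 0.992), Cox7a2l, Zbtb18 and Ankrd27 for Cdkn2c (0.999, 0.997 and 0.997), and Acss2, 1700007K13Rik and Dkk3 for Cdkn2d (0.998, 0.997 and 0.996). With 6 samples that share pools and arrays, 74 genes (for Cdkn1b) to 477 genes (for Cdkn2c) had a correlation over 0.95, so the order among them is loose. Acss2 and Dkk3, which followed Cdkn2d, differed by 0.51 ± 0.16 and 0.54 ± 0.15 (SE). They were picked for following Cdkn2d over these same samples, so these differences come with the choice and are no separate result.

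The machinery that the inhibitors act on was described next. Of 25 measured genes of the G1/S engine (cyclins D, E and A, their CDKs, retinoblastoma family and E2F genes), 0 rose, 0 fell and 25 did not pass, with a median difference of 0.02 against 0.0017 over all genes. Ccnd1, the cyclin D1 gene, stood at -0.38 in mutant and differed by -0.41 ± 0.12 (SE, adjusted p = 0.464 in limma), lower in 3 of 3 pairs. Cdk7, a subunit of the CDK-activating kinase, and Rbl1, which encodes the retinoblastoma relative p107, differed by -0.62 ± 0.50 and -0.39 ± 0.31. The pool 1 pair was the lowest for both, with pair differences of -1.46, -0.10 and -0.30 for Cdk7 and -1.11, -0.07 and 0.0049 for Rbl1. The genes of this list with the highest Cy5 level, Ccnd3 and the INK4 target Cdk4, differed by 0.22 ± 0.12 and -0.08 ± 0.10.

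Of 30 measured regulators of the inhibitors, which cover transcription factors, ubiquitin ligase subunits, Polycomb and TGF-beta genes, 0 passed in either direction and the median difference was 0.0028. Egr1, an immediate-early transcription factor, differed by -0.61 ± 0.11 (SE, adjusted p = 0.22 in limma), and Myc, which represses Cdkn1a and Cdkn2b, by -0.69 ± 0.21 (adjusted p = 0.491), both lower in 3 of 3 pairs. Tbx3, a T-box repressor of the Cdkn2a locus, differed by 0.57 ± 0.22 (adjusted p = 0.637) and was higher in 3 of 3 pairs. Trp53 differed by -0.24 ± 0.15, and Sp1 and Sp3 by -0.05 ± 0.11 and -0.03 ± 0.13. Ddb1 and Akt1, with the highest Cy5 levels of the list, differed by 0.14 ± 0.18 and 0.06 ± 0.09.

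Of 23 measured p53 targets, Cdkn1a among them, 0 rose, 0 fell and 23 did not pass, and the median difference was 0.06. The members moved both ways. Gadd45a, a growth arrest gene, differed by -0.57 ± 0.12 (SE, adjusted p = 0.297 in limma) and Perp, an epithelial junction gene, by -0.63 ± 0.47 (0.819), both lower in 3 of 3 pairs. Plk2, a polo-like kinase gene, differed by 0.54 ± 0.24 (adjusted p = 0.727 in limma) and was higher in 3 of 3 pairs. Aen and Ddit4 had the highest Cy5 levels and differed by 0.11 ± 0.12 and -0.12 ± 0.19.

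Genes reported to rise under HDAC inhibitors in other cells numbered 10, all measured, with Cdkn1a among them, and 0 passed. Their median difference was -0.05, with 4 higher and 6 lower in mutant means. Mt1, the metallothionein gene, differed by -0.62 ± 0.61, Gadd45a as above, and the clusterin gene Clu by -0.43 ± 0.27 (SE). The gelsolin gene Gsn differed by 0.35 ± 0.31, the highest of the list.

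Cell division genes did not pass either. Of 20 measured DNA replication genes 0 passed and 15 had a lower mutant mean, against 11226 of 22662 genes, with a median of -0.05. In all 3 pairs 4 of them were lower, against 17.4% of all genes, and 3 were higher, against 23%. Pcna, the clamp that p21 binds, differed by -0.30 ± 0.25 (SE), Gins2 by -0.35 ± 0.47 and Cdc6 by 0.22 ± 0.11, while Mcm6 and Mcm7, with the highest Cy5 levels, differed by -0.14 ± 0.09 and -0.05 ± 0.10. Of 20 measured G2/M genes 0 passed and 13 had a lower mutant mean, with a median of -0.08. In all 3 pairs 6 of them were lower and 3 were higher. Top2a differed by -0.34 ± 0.40, Mad2l1 by -0.32 ± 0.17 and Cenpa by -0.32 ± 0.29, and Cdc20 and Birc5 by 0.03 ± 0.09 and -0.02 ± 0.09. Both list medians were lowest in the pool 1 pair, at -0.21 each, against 0.03 and -0.01 in pool 2 and -0.03 and -0.0010 for the mean of pools 3 and 4. The mutant 1 array, which is part of the pool 1 pair, is the one with the widest spread between probes of a gene, and its part in these medians was not tested.

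Cdkn1c lies in an imprinted cluster that the noncoding RNA Kcnq1ot1 silences on the paternal chromosome. All 9 genes of the cluster list were measured, Cdkn1c among them, and 0 passed. Their median difference was 0.21, and 8 of 9 had a higher mutant mean against 11436 of 22662 genes. By pair the list median was 0.26, 0.17 and 0.08 for pools 1, 2 and the mean of 3 and 4, and the part of the mutant 1 array in it was not tested. Of the 9, 5 were higher in mutant in all 3 pairs, against 23% of all genes, and Cdkn1c was not one of them. Kcnq1ot1 differed by 0.57 ± 0.38 (SE, adjusted p = 0.803 in limma), with 1.36, 0.29 and 0.07 for the pairs of pools 1, 2 and 3 with 4. Slc22a18, a transporter gene, differed by 0.37 ± 0.20, Cd81, a tetraspanin gene, by 0.25 ± 0.11 and Nap1l4, a histone chaperone gene, by -0.29 ± 0.30.

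**Figure D4:**
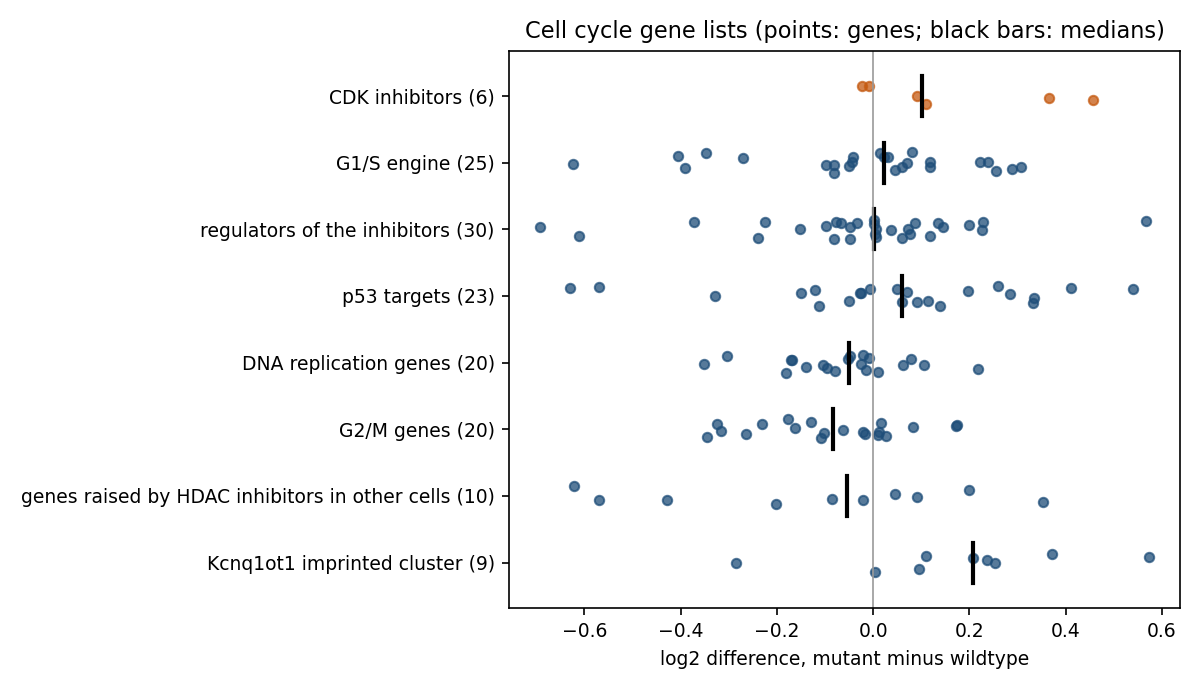
Log2 difference of mutant minus wildtype for each measured gene (points) of the CDK inhibitors and of 7 other gene lists, with the list's median as a black bar and the number of genes in brackets. Every list straddles 0, and its medians lie between -0.08 (G2/M genes) and 0.21 (Kcnq1ot1 imprinted cluster).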

How the data were processed

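The authors deposited 1 scanner output per array, with linear intensity for each spot, made with Agilent Feature Extraction 10.7.3.1 per the submitters' processing notes. Log10 ratios of Cy5 over Cy3 fill the deposited value table: each column equalled the scanner's own log ratio (correlation at least 0.9999991), which settled its scale and direction. Column medians were 0 on 7 arrays and 0.00483 on wildtype 2.

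Median spot signals were corrected for background in limma 3.58.1 under R 4.3.3 (normexp with an offset of 50), then loess was applied within each array. Control and outlier spots were left out and spots of a probe averaged. Probes whose Cy5 spots were called above background on 3 or more of the 4 arrays of a group were kept, 30364 of 55681. The brightest kept probe stood for its gene (22662 genes). Symbols came from accessions without version in a RefSeq table (GRCm38.p6), which named 27509 probes. The fit without the block was tested on simulated data with independent samples, which leaves out the shared deviation of same-numbered pools given below. Precision is limited by how many arrays there are.

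Between log2 levels of 10 and 12, Cy5 of pools 3 and 4 differed by a median absolute deviation of 0.0604 in mutant and 0.0565 in wildtype, within the 0.0455 to 0.0784 of 21 Cy3 array pairs. Wildtype 2 was left out of those pairs. The other Cy5 pairs differed by 0.11 to 0.354. The mean of pools 3 and 4 was therefore counted as 1 sample, where the study names 4 biological replicates per group. Nothing in the labels ties pools to separate animals, so p-values measure the spread between these samples. Same-numbered samples deviated together across genes (r = 0.495, 0.542 and 0.527 for pools 1, 2 and the mean of 3 and 4), and the pool numbers were treated as pairs, from the data and not from a label. All arrays lie on 1 slide with each group in its own row, and slide row cannot be told apart from group.

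The tests were limma (lmFit and eBayes, two-sided) and the exact permutation test. For other genes of a list the text names those past the threshold, the 3 with the largest difference and the 2 with the highest Cy5 level; Trp53, Sp1, Sp3 and Gsn were chosen after their values were seen. Some genes that this rule names are not reported here. The other lists examined were cell type markers and class I HDACs; of the latter, Hdac3 differed by 0.37 ± 0.26 (SE). Endothelium, ureteric bud, erythroid, renal vesicle, nephron progenitor and macrophage lists had median differences of 0.16, 0.20, 0.04, -0.40, -0.30 and 0.0087. The members and lists were chosen with earlier results of these data known.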

Additional observations from a re-analysis of the deposited data

How the results depend on the processing

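No CDK inhibitor gene passed in any of 25 alternatives, and the lowest adjusted p in limma was 0.0844 for Cdkn2d and 0.0941 for Cdkn2c, both with the replicate block and 8 arrays as separate samples. Over the alternatives, Cdkn2d lay between 0.26 and 0.48 and Cdkn2c between 0.15 and 0.88, positive in all 25. The other members changed sign in some, and the cause was not tested. Leaving out single samples moved Cdkn1a between -0.0817 and 0.27, Cdkn1b between -0.10 and 0.0648, Cdkn1c between -0.0739 and 0.27 and Cdkn2b between -0.12 and 0.10. Cdkn1b was 0.0743 with median centring and 0.0584 from Cy5 levels alone, and Cdkn2b 0.0639 with median centring, 0.22 from Cy5 alone and 0.0352 without pool 2 in both groups. Median centring moved the median of all genes to 0.0735, beside the 0.0743 of Cdkn1b and the 0.0639 of Cdkn2b. Downward, Cdkn2b was -0.265 in the deposited value table, -0.264 from Agilent processed signals, -0.0975 without background correction and -0.0814 with offset 0. Cy5 alone moved the median of all genes to 0.12, beside which Cdkn1b lay lower, Cdkn2b higher and Cdkn1a at 0.30.

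Of all genes, 10 passed, 34 with the replicate block, which compares paired pools and changed no call of a member, 257 with 8 arrays as separate samples, 745 with both, 5 with a trended and robust variance model, 0 from Cy5 alone and 0 without pool 2 in both groups. Leaving out single arrays or pools 3 and 4 of a group gave 1 to 10 genes: 6 without mutant 1, 4 without wildtype 1, 4 without wildtype 2, 3 without mutant pools 3 and 4 and 1 without wildtype pools 3 and 4. Of the 10 genes raised by HDAC inhibitors, 1 passed with 8 arrays and 2 with 8 arrays and the block, all lower in mutant. Of all 22662 genes, 257 and 745 passed in the same fits. Of the 23 measured p53 targets 1 (lower) and 5 (2 higher, 3 lower) passed. Of the 30 measured regulators 1 and 1 passed, lower in both fits. Gadd45a is in both the HDAC inhibitor and the p53 target list, so these counts may share a gene. Those fits count pools 3 and 4 as separate samples. Signal near background limits Cdkn2a and Cdkn2b.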
